A study of Mus musculus with 4 samples.

Results

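Secreted angiogenic factors, encoded by 10 genes, were examined in 4 mouse neuroblastoma tumours: Vegfa, Vegfb, Vegfc, Vegfd, Pgf, Angpt1, Angpt2, Angptl4, Apln and Adm. They were taken by gene symbol as a list of ligands. The rule used no measured value, but the list was drawn up with earlier results of these data known. All 10 were found among the 43432 genes of the deposited count table. Of the 10, 9 passed the filter on low counts together with 13823 genes in all, and Angpt1 did not. Vegfa, Angptl4, Apln and Adm are known targets of hypoxia-inducible factors and are called hypoxia-induced here, and the other 6 genes are called the other ligands.

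The tumours grew under the skin of female C57BL/6 mice from a mouse neuroblastoma cell line, 9464D-GD2, which displays the ganglioside GD2. The study compared 2 groups of 2 tumours. The sEV tumours came from mice given 25 µg dinutuximab, an antibody against GD2, plus 20 µg small extracellular vesicles (sEVs), membrane particles that the same cell line had released. The dinutuximab tumours came from mice given 25 µg dinutuximab alone, and every mouse in both groups thus received the antibody. Dosing was 2 times per week for 5 treatments. The age of the mice was not given in the sources used here, all tumours derive from 1 cell line, and the comparison holds no tumour without antibody. Both groups hold a tumour numbered 3 and a tumour numbered 4, and these numbers serve here as replicate names.

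Vascular endothelial growth factors signal through receptor tyrosine kinases on endothelial cells. VEGF-A, which binds VEGFR2, drives vessel sprouting, while VEGF-B and placental growth factor bind VEGFR1, and VEGF-C and VEGF-D act through VEGFR3 on lymphatic vessels. Angiopoietin-1 activates the receptor TIE2 and steadies vessels, and angiopoietin-2, released by endothelial cells, often acts against it. Under low oxygen, hypoxia-inducible factors (HIF) accumulate and bind a short core sequence near target genes, and Vegfa is the best known of these targets.

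Start-site sequences were available for 7 of the 10 genes, from RefSeq on GRCm38.p6, and are shown for the 2 start sites of Vegfa, for Adm and for Vegfb, because these 3 genes contrast the hypoxia-induced and the other ligands. Each window runs from 250 bases before to 50 bases after an annotated start. Capitals mark the HIF core, searched as ACGTG and GCGTG on both strands.
Vegfa, upstream start, chr17:46032328-46032627, minus strand: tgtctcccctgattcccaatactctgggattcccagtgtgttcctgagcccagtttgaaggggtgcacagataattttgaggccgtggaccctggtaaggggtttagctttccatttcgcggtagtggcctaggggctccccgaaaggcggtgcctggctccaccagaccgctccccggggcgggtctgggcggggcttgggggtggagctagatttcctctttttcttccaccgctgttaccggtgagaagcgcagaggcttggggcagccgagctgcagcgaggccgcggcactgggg
Vegfa, internal start, chr17:46025114-46025413, minus strand: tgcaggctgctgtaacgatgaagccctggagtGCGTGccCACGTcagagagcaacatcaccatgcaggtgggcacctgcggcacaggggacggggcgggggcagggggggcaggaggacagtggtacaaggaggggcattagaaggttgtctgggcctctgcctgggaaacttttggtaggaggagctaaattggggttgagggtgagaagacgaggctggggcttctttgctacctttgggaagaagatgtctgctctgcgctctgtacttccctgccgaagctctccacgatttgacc
Adm, chr7:110627407-110627706, plus strand: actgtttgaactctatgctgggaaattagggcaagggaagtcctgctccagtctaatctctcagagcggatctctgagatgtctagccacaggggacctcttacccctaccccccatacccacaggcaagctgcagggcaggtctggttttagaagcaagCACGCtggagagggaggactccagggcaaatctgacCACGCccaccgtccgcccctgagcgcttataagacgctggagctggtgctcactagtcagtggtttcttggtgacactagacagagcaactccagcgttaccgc
Vegfb, chr19:6987602-6987901, minus strand: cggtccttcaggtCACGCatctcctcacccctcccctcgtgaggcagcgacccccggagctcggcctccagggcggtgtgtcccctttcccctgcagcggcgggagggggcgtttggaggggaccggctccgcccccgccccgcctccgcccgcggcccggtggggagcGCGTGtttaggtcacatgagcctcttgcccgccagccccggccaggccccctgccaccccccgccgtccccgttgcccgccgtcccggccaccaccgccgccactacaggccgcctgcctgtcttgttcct
The window at the upstream start of Vegfa held no HIF core. That at its internal start held 2, with first bases at -218 and -211. This internal window lies within the body of the gene, downstream of the upstream start. Sequence more than 250 bases before a start was not searched, so a window without a core does not show that a gene lacks a HIF site. Adm had 2 cores, at -90 and -54, and Vegfb had 2, at -237 and -81. Apln, Vegfc and Vegfd had none, and Pgf had 1, at -124, in 1 of its 2 windows. Either form of the core occurred in 43.8% of 32851 start-site windows of the same length, so that a match in these windows is common among genes in general. The GC box GGGCGG, bound by SP1, occurred in every window of these genes except that of Vegfd and 1 of Pgf, and in 35.7% of all windows. The bases G and C made up 42.0% of the Vegfd window and 56.0% to 75.3% of the others, against a median of 52.7% over all windows. The part of this base content in the GC box matches was not tested. The AP-1 motif TGANTCA occurred in none of the windows of these 7 genes and in 7.81% of all windows.

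The sEV libraries held 26164711 and 28187573 counts and the dinutuximab libraries 26312447 and 24452699. The first principal component carried 44.3% of the variance. It set sEV replicate 3, at 28.5, apart from the remaining libraries, at -14.9 to -4.25. Values without that tumour are given beside the fold changes of the tested ligands, and not for the other genes. The neuroblastoma genes Hand2 and Isl1 were measured in every tumour, at 145 to 172 CPM and at 15.7 to 21.4 CPM. Dbh had 0 counts in all 4 and Th had at most 3. Gm42418, Gm26917 and Lars2, which gather reads from ribosomal RNA, held 4.75% and 4.05% of counts in the sEV tumours and 5.69% and 5.94% in the dinutuximab tumours, and the part of this difference in the results was not tested. The series design calls the tumours biological replicates, and p-values measure the spread between these 4.

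Per transcript length, 2 ligands made up most of the signal. Levels between genes are given as TPM, the count per exon length scaled to the same sum in every library. Vegfb averaged 97.3 ± 16.9 TPM in sEV tumours and 102 ± 6.60 TPM in dinutuximab tumours (SD, n = 2 each). Vegfa averaged 71.4 ± 15.1 TPM in sEV tumours and 94.3 ± 4.54 TPM in dinutuximab tumours (SD, n = 2 each). Over the 4 tumours the ranges of these 2 genes overlapped, so that their order is not fixed by these data, while Vegfa averaged 5.82-fold above the next gene, Apln, and its lowest tumour (60.7 TPM) stood above the highest of Apln (20.6 TPM).

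A middle tier followed without clear gaps. Apln, which encodes the peptide apelin, ranged from 6.76 to 20.6 TPM over the 4 tumours, Angpt2 from 9.32 to 18.6 TPM and Vegfd from 7.07 to 12.5 TPM. Adm, which encodes the vasodilator adrenomedullin, ranged from 2.33 to 9.66 TPM. Pgf ranged from 3.40 to 5.29 TPM and Angptl4 from 2.51 to 5.27 TPM. From Apln down to Angptl4, each gene overlapped the next in its range over tumours. Vegfc, the main lymphatic growth factor, ranged from 0.319 to 0.553 TPM, with its highest tumour below the lowest of Angptl4.

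Angpt1 was at the edge of detection, with 0 and 0 counts in sEV tumours and 2 and 1 counts in dinutuximab tumours. A count of 0 allows up to 3 counts, or 0.115 and 0.104 CPM in those 2 sEV libraries, so that no fold change can be given. Its exons share 737 of 5205 bases with Gm17473, a gene on the opposite strand. The tumours thus held Angpt2 transcripts, at 341 to 703 counts, with almost no counts of the TIE2-activating partner.

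**Figure D1:**
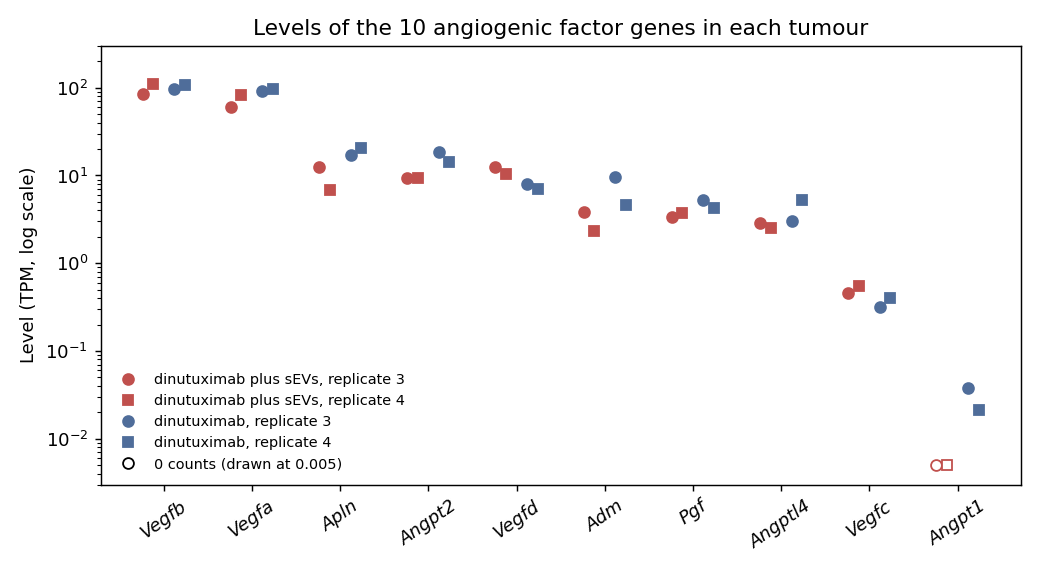
Level of each of the 10 genes (TPM, log axis) in each tumour, with sEV tumours in red and dinutuximab tumours in blue, circles for replicate 3 and squares for replicate 4, and open symbols for a count of 0. Vegfb and Vegfa lie between 60.7 and 109 TPM in every tumour, and Angpt1 has 0 counts in both sEV tumours.

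The comparison of sEV with dinutuximab tumours asks how added vesicles altered expression under the antibody. All 4 hypoxia-induced ligands had lower levels in both sEV tumours than in both dinutuximab tumours, by a median log2 fold change of -0.85 and a range of -1.30 to -0.48. The other ligands went in both directions, with a median of -0.14 over the 5 tested and a range of -0.88 to 0.54. With a filter of 1 CPM, which drops Vegfc, that median was -0.32. Without sEV replicate 3 the medians were -1.21 for the hypoxia-induced and -0.012 for the other ligands, and without sEV replicate 4 they were -0.64 and -0.28. Fold changes are log2 of sEV over dinutuximab with the standard error (SE) of the model. The median over all 13823 genes tested was 0.00.

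No ligand passed the edgeR quasi-likelihood test at an adjusted p of 0.05: 0 of 9 were higher and 0 lower, as for all genes, of which 0% were called higher and 0% lower. At an unadjusted p under 0.05, 1 ligand was higher and 4 were lower, namely Vegfd on the higher side and Vegfa, Apln, Adm and Angpt2 on the lower. Over all genes tested 2.47% were higher and 3.1% lower by that rule. Both sEV tumours lay below both dinutuximab tumours in 6 of the 9 tested ligands, where 16.5% of all genes did so, and above them in 2 of 9, where 18.1% did so. Vegfc, 1 of the 2 ligands above, passed the count filter only through its 2 sEV libraries, and the other 8 passed it in every library. DESeq2 called 17 genes higher and 38 lower, with Angpt2 among those lower. The limma-voom test called 0 in either direction (316 higher and 427 lower at an unadjusted p under 0.05).

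**Figure D2:**
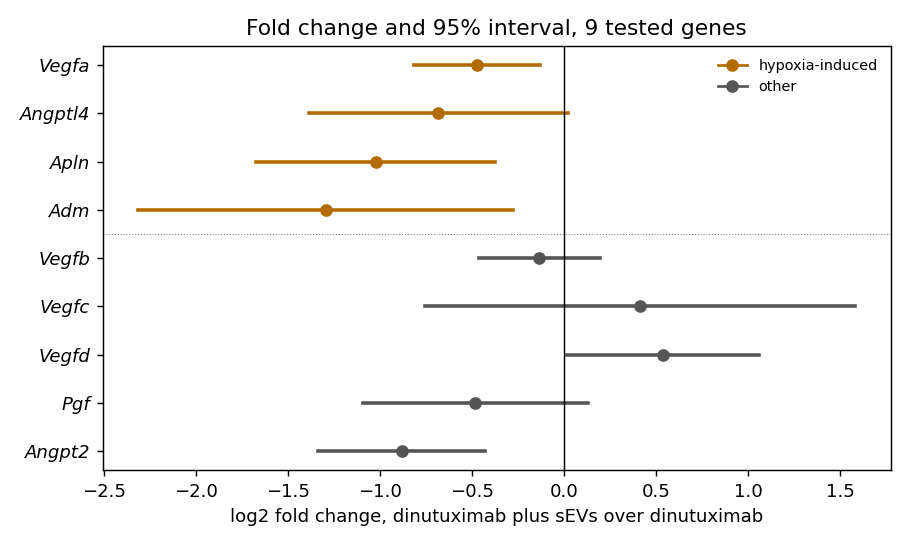
Log2 fold change (point) of sEV over dinutuximab tumours with its 95% interval (line) from the edgeR model for the 9 tested ligands, hypoxia-induced above the dotted line and others under it. The 4 hypoxia-induced ligands lie between -1.30 and -0.48, and the others between -0.88 and 0.54.

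Vegfa had 98.6 and 126 CPM in the sEV tumours, against 156 and 157 CPM in the dinutuximab tumours. CPM is the count relative to the scaled library size and is used for differences between groups. The dinutuximab tumours were nearly equal, and the sEV tumours differed from each other by 0.35 on the log2 scale, with replicate 3 the lower. The log2 fold change was -0.48 ± 0.15 (SE; 95% interval -0.82 to -0.13), or 1.39-fold lower, with an edgeR adjusted p of 0.726. Without sEV replicate 3 it was -0.32, and without sEV replicate 4 it was -0.66. The gene (ENSMUSG00000023951) spans 46016993 to 46032369 on the minus strand of chromosome 17 (GRCm38, as for all positions).

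Apln had 14.9 and 7.63 CPM in the sEV tumours, against 21.5 and 24.3 CPM in the dinutuximab tumours. Apelin acts on the receptor APJ of sprouting endothelium and its gene responds to hypoxia. The log2 fold change was -1.02 ± 0.28 (SE; 95% interval -1.67 to -0.37), or 2.03-fold lower, with an edgeR adjusted p of 0.642. The spread within the sEV group was 0.93 on the log2 scale, close to the difference between groups. Without sEV replicate 3 the value was -1.59, and with sEV replicate 4 omitted instead it was -0.62. Each of these fits rests on a single sEV tumour. Apln (ENSMUSG00000037010) lies at 48025146 to 48034853 on the minus strand of chromosome X.

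Adm had 2.33 and 1.35 CPM in the sEV tumours, against 6.24 and 2.78 CPM in the dinutuximab tumours. Adrenomedullin relaxes vessels and acts through the receptor gene Calcrl together with a Ramp protein. Its log2 fold change of -1.30 ± 0.45 (SE) was the largest among the 9 ligands, with an edgeR adjusted p of 0.765. The 2 dinutuximab tumours themselves differed by 1.04 on the log2 scale, and the counts were low, at 61 and 39 in sEV tumours and 160 and 68 in dinutuximab tumours. Without dinutuximab replicate 3 the value was -0.60, and with sEV replicate 3 omitted it was -1.75. Each of these fits leaves a single tumour in the reduced group. Adm (ENSMUSG00000030790) lies at 110627661 to 110629820 on the plus strand of chromosome 7.

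Angptl4 encodes a secreted inhibitor of lipoprotein lipase that is induced by hypoxia and by fatty acid sensors. It had 3.86 and 3.19 CPM in the sEV tumours, against 4.33 and 7.002 CPM in the dinutuximab tumours. The groups did not overlap, but dinutuximab replicate 3 lay close to the sEV tumours. The log2 fold change was -0.68 ± 0.31 (SE; 95% interval -1.39 to 0.02; edgeR adjusted p = 0.885). With dinutuximab replicate 4 omitted, the value was -0.30, and with sEV replicate 3 omitted it was -0.83. Angptl4 (ENSMUSG00000002289) lies at 33773750 to 33781830 on the minus strand of chromosome 17. Of 5 tested targets of the PPAR fatty acid sensors, 3 were positive and 2 negative, with a median of 0.01 and none at an unadjusted p under 0.05. Lpl, the lipase that ANGPTL4 inhibits, had 61.3 and 66.4 CPM in sEV tumours and 46.5 and 54.2 CPM in dinutuximab tumours (log2 fold change 0.34 ± 0.14, SE; edgeR adjusted p = 0.861). Cd36, a fatty acid receptor, had 0.45 ± 0.15 (SE; edgeR adjusted p = 0.765).

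Among the other ligands, Angpt2 had the lowest p of the 9. It had 13.0 and 12.4 CPM in the sEV tumours, against 27.4 and 19.5 CPM in the dinutuximab tumours. The sEV tumours were almost equal, and the dinutuximab tumours differed by 0.48 on the log2 scale. The log2 fold change was -0.88 ± 0.20 (SE; 95% interval -1.34 to -0.43), or 1.84-fold lower, with an edgeR adjusted p of 0.463. DESeq2 gave -0.89 (adjusted p = 0.0488). The edgeR value was -0.93 without sEV replicate 3 (adjusted p = 0.0244) and -0.85 without sEV replicate 4 (adjusted p = 0.0284), and -0.62 and -1.11 without dinutuximab replicate 3 or 4 (adjusted p = 0.854 and 0.431). Angpt2 (ENSMUSG00000031465, chromosome 8, 18690263 to 18741562, minus strand) lies within Mcph1 on the opposite strand, and their exons share 0 bases.

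Vegfb, the most abundant ligand with Vegfa, had 51.9 and 62.8 CPM in the sEV tumours and 62.0 and 64.0 CPM in the dinutuximab tumours. The groups overlapped. Its log2 fold change was -0.14 ± 0.14 (SE), with a 95% interval of -0.46 to 0.19 and an edgeR adjusted p of 0.941. Without sEV replicate 3 it was -0.012, and without sEV replicate 4 it was -0.28. Pgf, which encodes placental growth factor, had 3.74 and 3.92 CPM in the sEV tumours, against 6.12 and 4.59 CPM in the dinutuximab tumours (-0.48 ± 0.27, SE; edgeR adjusted p = 0.892). The Pgf value was -0.26 without dinutuximab replicate 3 and -0.46 without sEV replicate 3. Vegfb (ENSMUSG00000024962) lies at 6982473 to 6987651 on the minus strand of chromosome 19, and Pgf (ENSMUSG00000004791) at 85166635 to 85177790 on the minus strand of chromosome 12.

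Of the lymphatic ligands, Vegfd carried enough counts to compare. Vegfd had 11.4 and 8.87 CPM in the sEV tumours, against 7.60 and 6.39 CPM in the dinutuximab tumours, a log2 fold change of 0.54 ± 0.23 (SE; 95% interval 0.01 to 1.06; edgeR adjusted p = 0.882). Both sEV tumours were above both dinutuximab tumours. Without sEV replicate 3 the value was 0.33 and without sEV replicate 4 it was 0.71. Among the 4 fits that omit a tumour, its unadjusted p was under 0.05 in that without sEV replicate 4 and above it in the other 3. Vegfc, at 11 and 14 counts in sEV tumours and 8 and 9 in dinutuximab tumours, had a value of 0.41 ± 0.51 (SE; 95% interval -0.75 to 1.58; edgeR adjusted p = 0.947; 0.50 without sEV replicate 3), and no difference was detectable at this depth. Since Vegfc passed the filter only through the sEV tumours, its sign is not read. Vegfd (ENSMUSG00000031380) lies at 164373378 to 164402650 on the plus strand of chromosome X and Vegfc (ENSMUSG00000031520) at 54077606 to 54187096 on the plus strand of chromosome 8. Angpt1 (ENSMUSG00000022309) spans 42424723 to 42676977 on the minus strand of chromosome 15.

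**Figure D3:**
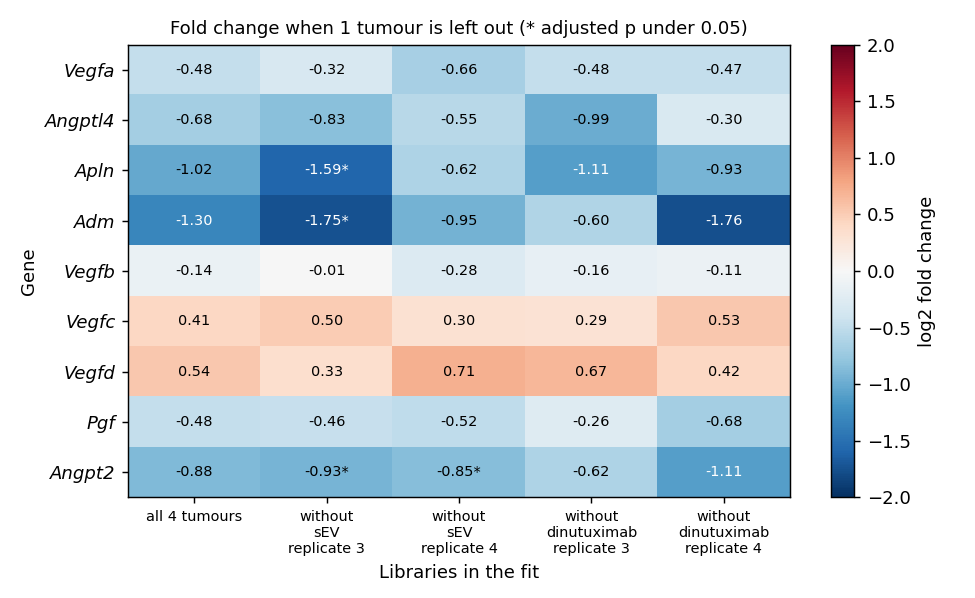
Log2 fold change of sEV over dinutuximab tumours for the 9 tested ligands (rows) with all 4 tumours and with each tumour left out (columns), where blue is lower and red higher with sEVs. Stars mark an edgeR adjusted p under 0.05. They occur only in fits that leave a single sEV tumour, and are therefore not read as calls.

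Within each tumour the hypoxia-induced ligands took a smaller share with sEVs. They made up 41.8% and 41.3% of the summed TPM of the 10 genes in the sEV tumours, against 48.4% and 49.2% in the dinutuximab tumours. Summed over the 4 genes, their level was 79.9 and 93.7 TPM in sEV tumours, against 121 and 128 TPM in dinutuximab tumours. The other 6 summed to 111 and 133 TPM in sEV tumours and 129 and 132 TPM in dinutuximab tumours, which overlapped. Most of the hypoxia-induced sum is Vegfa, so the share mainly follows that gene.

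On a log scale each gene has the same weight in a class mean, whatever its level. The mean log2(CPM + 0.5) of the hypoxia-induced ligands exceeded that of the others by 1.22 and 0.86 in the sEV tumours. The excess was 1.62 and 1.74 in the dinutuximab tumours. The groups differed by -0.65, sEV minus dinutuximab, with an SD between tumours of 0.25 in the sEV group and 0.08 in the dinutuximab group. The mean of the others includes Angpt1 (0 to 0.078 CPM) and Vegfc (0.312 to 0.485 CPM). At such levels the added 0.5 CPM shrinks differences, so these genes hardly move that mean. With 1 CPM added instead, the groups differed by -0.60. The genes had been sorted into these 2 classes with earlier results of these data known, so the difference is given as a description. Angpt2 and Pgf have also been reported to respond to hypoxia. Counted with them, the hypoxia-induced median was -0.78, and the tested others are Vegfb (-0.14), Vegfc and Vegfd (0.54). The median of those 3 is the value of Vegfc itself (0.41 ± 0.51, SE), which passed the count filter only through the sEV tumours, so it says nothing about a class.

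Among the 5 VEGF family genes the balance differed in the same direction. Vegfa made up 37.4% and 39.9% of the family's summed TPM in sEV tumours, against 45.2% and 45.3% in dinutuximab tumours. Vegfb made up 52.5% and 53.0% in sEV tumours, against 48.1% and 49.3% in dinutuximab tumours. The ratio of Vegfa to Vegfb was 0.711 and 0.752 in sEV tumours, against 0.939 and 0.917 in dinutuximab tumours. A ratio within a library does not depend on how libraries are scaled, and both sEV tumours lay below both dinutuximab tumours. An exact two-sided permutation test on 2 and 2 tumours cannot give a p below 0.333, and none was made.

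**Figure D4:**
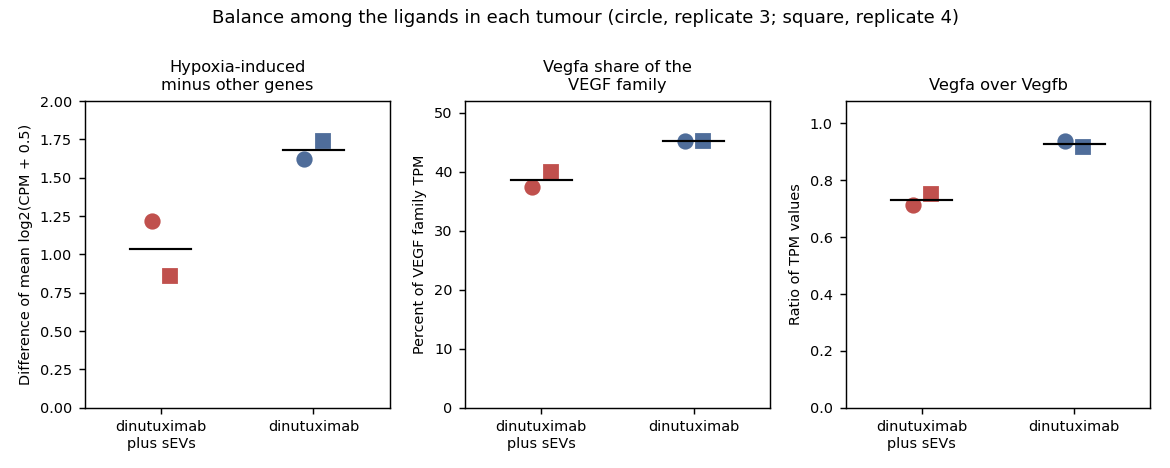
Values per tumour (points; bars, group means; n = 2 each) of the mean log2(CPM + 0.5) of the hypoxia-induced minus the other ligands, the Vegfa percentage of VEGF family TPM, and the TPM ratio of Vegfa to Vegfb. In each panel both sEV tumours lie below both dinutuximab tumours, at 0.711 and 0.752 against 0.939 and 0.917 for the ratio.

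Most receptor genes also had negative values. Of 12 receptor and co-receptor genes, 9 had negative and 3 positive fold changes, with a median of -0.37. Over all genes tested, 49.7% were negative. At an unadjusted p under 0.05, 3 of the 12 were lower and 0 higher, against 3.1% and 2.47% of all genes tested. By edgeR, 0 passed the adjusted threshold. Flt1, which encodes VEGFR1, had 13.6 and 12.2 CPM in sEV tumours, against 14.9 and 23.2 CPM in dinutuximab tumours (-0.56 ± 0.23, SE; edgeR adjusted p = 0.859). Aplnr, the apelin receptor gene, had 1.60 and 1.80 CPM in sEV tumours, against 2.69 and 3.44 CPM in dinutuximab tumours (-0.84 ± 0.32, SE; edgeR adjusted p = 0.833). Nrp2, a VEGF-C co-receptor, had -0.46 ± 0.16 (SE; edgeR adjusted p = 0.791).

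The main VEGF-A receptor gene Kdr differed less, at 7.41 and 6.45 CPM in sEV tumours and 6.78 and 9.79 CPM in dinutuximab tumours, where the groups overlapped (-0.26 ± 0.25, SE; edgeR adjusted p = 0.930). The angiopoietin receptor gene Tek had -0.78 ± 0.47 (SE) on 10 to 17 counts, its relative Tie1 -0.49, and the VEGFR3 gene Flt4 -0.51 (edgeR adjusted p = 0.908, 0.887 and 0.909). Nrp1 and Ramp2 had values of 0.07 and 0.03, and Ramp1 and Ramp3 of -0.28 and -0.25. Calcrl, the adrenomedullin receptor gene, had 10.2 and 8.53 CPM in sEV tumours, against 7.25 and 7.86 CPM in dinutuximab tumours (0.31 ± 0.21, SE; edgeR adjusted p = 0.909). The fold changes of Adm and of its receptor gene thus had opposite signs, and neither passed the test.

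Markers of vessel cells had lower sums in the same libraries. The 10 endothelial markers summed to 144 and 137 CPM in sEV tumours and 165 and 181 CPM in dinutuximab tumours. Pecam1 alone gave 67.0 and 59.6 CPM in sEV tumours and 84.4 and 78.6 CPM in dinutuximab tumours. Of the 10 endothelial markers 9 had negative values (median -0.42), and 0 passed the adjusted threshold by edgeR. In 5 of the 10 both sEV tumours lay below both dinutuximab tumours, and in the rest the groups overlapped. The 10 pericyte and smooth muscle markers summed to 72.5 and 59.0 CPM in sEV tumours and 115 and 119 CPM in dinutuximab tumours. All 10 were negative (median -0.90), where 49.7% of all genes tested were negative. In 5 of the 10 both sEV tumours lay below both dinutuximab tumours, against 16.5% of all genes tested. In the rest, such as Kcnj8 and Abcc9, the groups overlapped. None of the pericyte and smooth muscle markers passed the adjusted threshold by edgeR. In bulk tissue, fewer cells of a type and less RNA per cell cannot be told apart. As a percentage of the endothelial marker sum, Angpt2 stood at 9.04 and 9.07 in sEV tumours and at 16.6 and 10.8 in dinutuximab tumours. Apln stood at 10.4 and 5.57 in sEV tumours and at 13.0 and 13.4 in dinutuximab tumours. Both sEV tumours lay below both dinutuximab tumours in each percentage, and the part of vessel content in these results was not tested.

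Markers of other cells that make Vegfd or Angptl4 were also read. The 7 fibroblast markers summed to 894 and 757 CPM in sEV tumours, where Vegfd was higher, and to 622 and 613 CPM in dinutuximab tumours. Most of the sum was Dcn, at 482 and 289 CPM in sEV tumours, and Col3a1, at 337 and 394 CPM. Of the 7 fibroblast markers 5 had positive values. Col1a1 (-0.44 ± 0.17, SE) and Lum (-0.78 ± 0.57, SE) were negative (edgeR adjusted p = 0.834 and 0.909). For Col1a1 both sEV tumours lay below both dinutuximab tumours. Adipocyte markers, of a cell type rich in Angptl4, summed to at most 1.48 CPM in any tumour, with Plin1 and Lep at 0 counts. Of 6 lymphatic endothelial markers 3 were tested, with 1 positive and 2 negative, Ccl21a had 0 counts and Prox1 at most 1. Lyve1, which macrophages also express, had 128 and 38.5 CPM in sEV tumours and 46.4 and 28.7 CPM in dinutuximab tumours (edgeR adjusted p = 0.861). The 7 macrophage markers summed to 1701 and 1756 CPM in sEV tumours and 1466 and 1514 CPM in dinutuximab tumours. Blood and muscle genes differed between the same libraries. The 5 erythroid genes summed to 70.1 and 42.3 CPM in sEV tumours and 34.96 and 21.2 CPM in dinutuximab tumours, and all 5 were positive (median 1.07). The skeletal muscle markers summed to 8.25 and 4.92 CPM in sEV tumours and 12.04 and 12.4 CPM in dinutuximab tumours. All 5 tested were negative (median -0.75), where 49.7% of all genes tested were negative. The part of fibroblasts, macrophages, blood and muscle in the ligand values was not tested.

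Genes that share inducers with Vegfa also had mostly negative values. Of 15 other hypoxia targets 13 were negative (median -0.37), in a list already known to be lower in these libraries. Of the 15, 8 were lower at an unadjusted p under 0.05 and 0 passed the adjusted threshold by edgeR. The ATF4 stress pathway can also raise Vegfa, and its list of 9 genes holds Atf4 itself beside targets. All 9 were negative (median -0.52), with 8 at an unadjusted p under 0.05. The exception was Atf4, where the groups overlapped (-0.13 ± 0.13, SE; edgeR adjusted p = 0.934). Over all genes tested, 49.7% were negative and 3.1% were lower at an unadjusted p under 0.05. Among 7 tested oxygen-sensing genes 6 were negative. Epas1, which encodes the HIF-2 alpha subunit and is high in endothelium, had 3.78 and 5.06 CPM in sEV tumours and 6.82 and 9.05 CPM in dinutuximab tumours (-0.84 ± 0.27, SE; edgeR adjusted p = 0.727). Hif1a, the other alpha subunit gene, had 180 and 221 CPM in sEV tumours and 178 and 196 CPM in dinutuximab tumours (0.10 ± 0.15, SE; edgeR adjusted p = 0.95). Hif1a was named after its value was seen. The handling response genes, a reading of tissue collection, summed to 454 and 473 CPM in sEV tumours and 575 and 561 CPM in dinutuximab tumours, and their part in the ligand values was not tested.

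Other secreted regulators of vessels showed no common direction. Of 10 tested further angiogenic ligands 5 were positive and 5 negative, with a median of -0.02. Esm1, a secreted product of endothelial tip cells, had 10.8 and 8.25 CPM in sEV tumours, against 20.5 and 13.8 CPM in dinutuximab tumours (-0.85 ± 0.24, SE; edgeR adjusted p = 0.649). Pdgfb, which recruits pericytes, had -0.66 ± 0.26 (SE; edgeR adjusted p = 0.841). Of 9 tested inhibitors 3 were positive and 6 negative. Col18a1, the source of endostatin, had -0.56 ± 0.14, and Sema3a, a repellent that competes for neuropilin, had 0.54 ± 0.21 (SE; edgeR adjusted p = 0.568 and 0.841). Sema3a lay at 240 and 147 CPM in sEV tumours, against 133 and 134 CPM in dinutuximab tumours. Of the 4 tested genes that process VEGF-C, VEGF-D or peptide ligands, 3 were positive and none had an unadjusted p under 0.05.

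**Figure D5:**
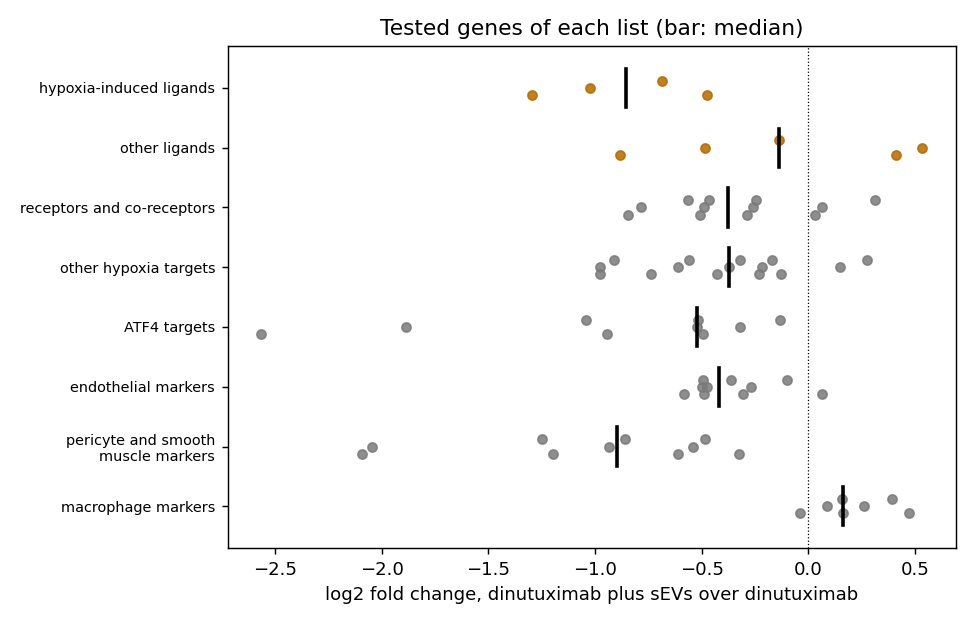
Log2 fold change of sEV over dinutuximab tumours for the tested genes of each list (points) with the list median (bar), the ligands in orange. The hypoxia-induced ligands have a median of -0.85 and the pericyte and smooth muscle markers of -0.90, while the macrophage markers have a median of 0.16.

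The ligands did not share 1 profile over the 4 tumours. Likeness to Vegfa was measured as the root mean square difference of log2(CPM + 0.5), centred on each gene's mean over 4 tumours. The 5 nearest of 11980 named protein-coding genes were Banp, Lpar5, Nphp4, Alkbh5 and Cyp39a1, at 0.028 to 0.036. Lpar5 lay at only 0.229 to 0.696 CPM, where the added 0.5 CPM shrinks differences, and its fitted log2 fold change was -0.93 ± 0.52 (SE). Banp had 20.9 and 27.0 CPM in sEV tumours, against 32.8 and 34.8 CPM in dinutuximab tumours. Among the ligands, Vegfb (0.17) and Pgf (0.18) were nearest to Vegfa, at ranks 882 and 923 of the 11980 genes. Apln (0.54) and Adm (0.57), also hypoxia-induced, were among the farthest. This measure is not scaled, so it reflects the size of a change as well as its pattern. Apln and Adm had larger fold changes than Vegfa in the same direction. Vegfa was lowest in sEV replicate 3, whereas Apln, Adm and Angptl4 were lowest in sEV replicate 4.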

How the data were processed

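Messenger RNA of 4 frozen tumours was sequenced after an Illumina stranded mRNA preparation on 2 lanes, as the labels' protocols state. Raw counts for each Ensembl gene were deposited by the authors, and all 173728 values were equal in the series table and the tables per sample. Per the submitters' processing notes, the tools were STAR, SAMtools and HTSeq and the build mm10, while versions, annotation, counting mode and strand setting are not stated in the sources used here. Names, positions and exon lengths came from GENCODE M21 (GRCm38), which named 42548 of 43432 IDs.

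The main test used edgeR 4.0.16 in R 4.3.3: filterByExpr, TMM factors, a quasi-likelihood F test on the group alone, and Benjamini-Hochberg adjustment over 13823 genes at 0.05. The SE is the fold change over the root of F. DESeq2 1.42.0, limma-voom (limma 3.58.1), other scalings and filters, a replicate block and each library left out were alternatives. The tests were tested on simulated data. TPM used the union of exons per gene, so a change of isoform alters it.

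The members, lists, classes and tests were chosen with earlier results of these data known. All 10 ligands, all receptors and the 5 genes nearest to Vegfa in profile are named. The rule for each other list was its 4 genes of lowest unadjusted p under 0.05. Only some of those are printed, and some list genes outside the rule were named after their values were seen. Not every list member is reported in the text.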

Additional observations from a re-analysis of the deposited data

How the results depend on the processing

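The tested ligands other than Vegfc kept the sign of their fold changes under each alternative. Vegfc, whose sign is not read, had no value under the filter of 1 CPM. None of the ligands passed the adjusted threshold under other scalings, a filter of 1 CPM or limma-voom. Without the low-count filter, edgeR called 107 genes higher and 155 lower and 3 ligands (Apln, Angpt2 and Adm). The ligands' p-values in that fit are those of a normal distribution, so they leave out the uncertainty of the variance. DESeq2 called 17 higher and 38 lower and 1 ligand (Angpt2). With the replicate block, edgeR called 21 higher and 46 lower and 1 ligand (Angpt2, adjusted p = 0.0479). The labels do not say what the tumour numbers mean. Same-numbered deviations from the group means correlated at 0.09 over genes, which with 2 tumours per group cannot settle whether the numbers pair tumours. Leaving out 1 library gave between 0 and 160 genes higher, between 0 and 156 lower and between 0 and 3 ligands. In the fits without an sEV library the prior degrees of freedom were infinite, against 6.48 with all 4, and the single library left in a group is taken to vary as the other group does. The median of the hypoxia-induced ligands then ranged from -1.21 to -0.64 and that of the others from -0.28 to -0.012. The median of the others was -0.32 with a filter of 1 CPM, which drops Vegfc, and 0.41, the value of Vegfc alone, with Angpt2 and Pgf counted as hypoxia-induced. Counts under 20 in Vegfc, Tek and Angpt1 limit what can be said of them.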
